A study of Homo sapiens with 8 samples.

Results

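Cisplatin-treated and untreated A2780 cells were compared by the places in the genome where γH2AX was called. The comparison held 25132 cisplatin and 9487 untreated regions on chromosomes 1 to 22, of 54434 regions that the 3 peak lists of the study (untreated, cisplatin, Pt-ttpy) held on all chromosomes. Members were chosen by list and chromosome alone: 989 cisplatin and 603 untreated regions on chromosomes X, Y and M were set aside. A cisplatin region was classed as kept where it shared at least 1 base with an untreated region and as gained where it shared none. An untreated region was classed as kept or absent in the same way against the cisplatin list.

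A2780 is a human ovarian carcinoma cell line, here a single established line. The untreated group (2 samples) received no drug, and the cisplatin group (2 samples) received the drug at its IC80 for 96 hours, a setting at which, according to the labels, 40 to 50% of the genomic DNA is damaged. No concentration is stated. Chromatin of both groups was sonicated to 200 to 700 bp, precipitated with an antibody to γH2AX and sequenced as single reads of 50 bases. The labels tie both samples of a group to 1 list, so every value below has no replicates, no test between conditions was possible, and intervals cover counting error only.

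Cisplatin is a platinum drug that binds purines and links bases of the same DNA strand or, more rarely, of opposite strands. Such crosslinks stall replication and transcription and are removed by nucleotide excision repair and, between strands, by the Fanconi pathway. γH2AX is histone H2AX phosphorylated by the kinases ATM, ATR and DNA-PK around DNA breaks and stalled forks, where it can spread over long stretches of chromatin. A peak caller that looks for narrow summits, as here, records only the steepest parts of such a domain.

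After cisplatin, 18298 regions were gained and 6834 lay on untreated regions, so gained regions were 72.8% of the cisplatin list (exact binomial 95% interval 72.3 to 73.4%). In the other direction 377 untreated regions, or 3.97% (3.59 to 4.39%), were absent from the cisplatin list. There were 2.65 cisplatin regions per untreated region, and the sequence they covered was also 2.65 times as much, 7792 against 2937 kb. Of the bases under untreated regions 96.6% were also under a cisplatin region, whereas 36.4% of the bases under cisplatin regions were under an untreated one. The lists therefore differed mainly in one direction as deposited: the cisplatin list held nearly all deposited untreated places and added others to them.

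Numbering in the untreated list had holes, which bears on every count of gained regions and on the absent share. Absent regions could be counted among retained ones only, and whether missing ones overlapped a cisplatin region is not known. The numbers reached 18049, but 8848 of them were missing, of which 8451 fell between retained neighbours on the same autosome. No number was missing from the cisplatin list. If each missing number is taken as 1 region between its retained neighbours, as many as 7546 gained cisplatin regions could lie on one of them. At least 10752 gained regions, or 42.8% of the cisplatin list, were then left, with the reservation that 1 untreated region can touch several cisplatin regions. Against all 17087 autosomal untreated numbers there were 1.47 cisplatin regions per number. Only 2012 gained regions lay where no missing number had been placed. These include regions outside the outermost untreated regions of a chromosome, since the 81 numbers missing between chromosomes were not placed.

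The retained untreated regions also carried signs of having been cut. On the autosomes 730 peak numbers stood on more than 1 piece, and in each of these the pieces carried the same fold, p-value and summit offset. The summit lay outside the region in 2098 cases, and 1683 regions were narrower than the narrowest cisplatin region of 101 bp. One or more of these signs were seen in 3589 untreated regions, or 37.8%. The cut edges were rarely those of another list, since 2.17% of the untreated regions had an edge in common with a cisplatin region and 2.79% with a Pt-ttpy region. Untreated widths below are therefore widths of what was deposited.

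The lists also differed in calling level. The fold values in each list were whole multiples of a single step, 0.173 in the cisplatin and 0.301 in the untreated list, which gives the read pileup at each summit when fold is taken as (pileup + 1)/(background + 1). The constant background was 4.78 reads in the cisplatin and 2.33 in the untreated list, a ratio of 2.05, and every recomputed pileup was within 3.27e-05 of a whole number. Poisson tails from these pileups came within 0.000177 of the -log10 p the authors deposited. A single background thus served all autosomal regions of a list, so the deposited folds and p-values hold no correction that varies by place. The lowest pileup was 14 in the cisplatin list, or 2.93 times its background, and 9 in the untreated list, or 3.87 times its background. A cisplatin region could thus be called at a lower level over background than any untreated region. By q-value the order was the other way, with a lowest -log10 q of 1.25 in the cisplatin and 1.00 in the untreated list.

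Gained regions were the weak end of the cisplatin list. Their median pileup was 18 (quartiles 17 to 21, highest 52), against 34 (26 to 46, highest 202) for kept regions. Over background these medians were 3.77 and 7.12. The gained share fell steadily with pileup: it was 99.5% of the 4074 regions at pileups of 14 to 16, 86.6% of the 8193 at 19 to 24, 42.8% of the 4078 at 25 to 34 and 5.97% of the 1877 at 35 to 49. Of the 1139 regions at 50 to 99 only 1 was gained, and none of the 346 at 100 or more. The 377 absent untreated regions were likewise weak, with a median pileup of 14 and a highest of 33, where kept untreated regions had a median of 18 and a highest of 200.

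**Figure D1:**
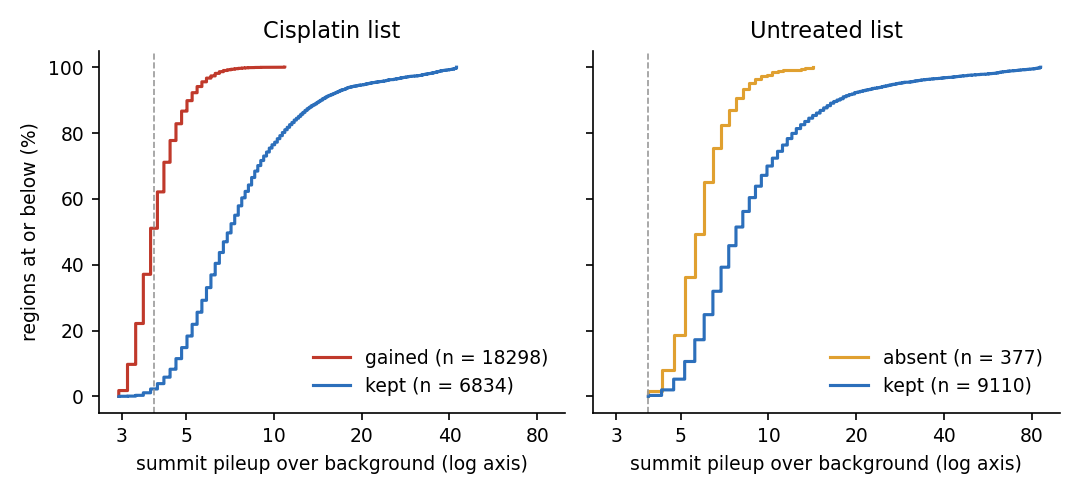
Cumulative share of regions (y axis, percent) at or below each summit pileup divided by the background of its own list (x axis, log scale), for gained and kept regions of the cisplatin list and absent and kept regions of the untreated list. The dashed line marks the lowest untreated level, 3.87 times background, below which 51.1% of the gained regions lie.

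The same level over background was then asked of both lists. This matches pileup over background only, and not the p-value or q-value. At the higher cisplatin background the same ratio gives a smaller Poisson p-value, so the match is stricter for cisplatin regions in that respect. Scaled by the ratio of the backgrounds, a cisplatin pileup of 18.5 equals the lowest untreated pileup of 9. Of the gained regions 9345 (51.1%) lay below that level and 8953 (48.9%) at or above it, while 97.7% of the kept regions reached it. With the 15633 cisplatin regions at this level the gained share was 57.3%, and 1.65 cisplatin regions stood against each deposited untreated one. With the missing untreated numbers counted as well, the ratio turned below 1, to 0.915. The greater length of the cisplatin list thus holds for the lists as deposited. It was not seen with the level matched and each missing number counted as 1 untreated region at that level. Whether the missing numbers stood for such regions is not known.

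Gained regions were also narrow. Their median width was 148 bp (quartiles 116 to 206, widest 1748), against 360 bp (199 to 706, widest 28752) for kept cisplatin regions. All 354 cisplatin regions over 2 kb were kept, and 1.84% of the gained against 36.8% of the kept regions were wider than 500 bp. Although gained regions made up most of the list by number, they held 42.6% of the sequence it covered. Absent untreated regions had a median width of 99 bp and none exceeded 262 bp. The median widths of gained and absent regions were below the 200 to 700 bp of the sonicated fragments.

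At places kept by both lists, the cisplatin region was mostly the wider one. Of the kept cisplatin regions 5456 lay on 1 untreated region, 856 on 2 and 522 on 3 or more, up to 13. In 5351 places 1 cisplatin region matched 1 untreated region, with median widths of 285 and 148 bp. Among the 3867 of these whose untreated region showed no sign of cutting, the medians were 293 and 171 bp and the cisplatin region was wider in 89.5%. A region cut beside its summit can lack every sign. The cisplatin list was also called down to a lower level over background, 2.93 against 3.87 times. The part of the calling level in these widths was not tested. The summits of these 3867 pairs lay a median of 22 bp apart (upper quartile 59), and 71.8% were within 50 bp, in pairs that were chosen for overlapping.

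The height at those kept places was not greater after cisplatin once each list was set against its own background. The raw pileup was 1.72 times as high in the cisplatin list (median over the 5351 places), less than the 2.05 by which the backgrounds differed. Over background the median ratio of cisplatin to untreated was 0.836 (quartiles 0.708 to 0.974), and 22.5% of the places were higher after cisplatin. Where the untreated pileup was 9 to 12 the median ratio was 1.02, at 17 to 24 it was 0.83, at 50 to 99 it was 0.673 and at 150 or more it was 0.504. Grouped by cisplatin pileup instead, the ratio was 0.637 at 14 to 18, 0.922 at 35 to 49 and 0.544 at 150 or more. Both lists ended near the same highest pileup, 200 and 202, although their backgrounds differed 2.05 times, and the choice of the list that sets the bins changes the ratio at the low end. The part of these limits and of the backgrounds in the ratio was not tested.

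By location, gained and kept regions were distributed differently. The belt of 5 Mb on either side of a centromere gap, where satellite repeats and duplicated sequence are common, held 73.4% of the kept and 33.6% of the gained cisplatin regions. The long arm of chromosome 1, outside that belt and more than 1 Mb from its end held 39.4% of the gained but 3.72% of the kept regions. Chromosome ends (within 1 Mb) held 4.02% of the gained and 6.69% of the kept regions, and the rest of the autosomes 23% and 16.2%. The gained share was 55.1% (95% interval 54.1 to 56.0%) near the gaps, 61.7% (58.8 to 64.4%) at the ends, 96.6% (96.2 to 97.0%) on the long arm of chromosome 1 and 79.2% (78.1 to 80.3%) elsewhere.

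The gained regions of these places were not equally strong. Near the gaps 69.7% of the gained regions reached the untreated calling level and 48.4% had a -log10 q of at least 5, and at the chromosome ends these shares were 66.5% and 44.9%. On the long arm of chromosome 1 they were 30.3% and 10.5%. Of the 1859 gained regions with a pileup of 25 or more, 1203 (64.7%) lay near a gap and 97 (5.22%) on that arm, and 78.6% lay within 10 kb of an untreated region. The strong gained regions were thus mostly neighbours of places already called without drug.

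Missing untreated numbers were placed in the same way. Between neighbours lying in the same kind of place, 2508 were missing near the gaps, 257 at the ends, 2558 on the rest of the long arm of chromosome 1 and 2552 elsewhere. Retained numbers were 6311, 545, 362 and 1418, so that only on that arm and elsewhere did missing numbers outnumber retained ones. Cisplatin regions at the untreated calling level were then set against the retained and so placed missing numbers. They were 1.05 times as many near the gaps, 1.16 times at the ends, 0.828 times on the rest of the long arm of chromosome 1 and 0.772 times elsewhere. Another 576 missing numbers lay between neighbours in different kinds of place and were left out. Any of them would lower the ratio of its place, so values just above 1 are not secure.

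Chromosome 1 dominated the gained regions. It held 8664 of them, 47.3% of the total, on 8.42% of the autosomal sequence, or 38.0 per Mb. Its cisplatin regions numbered 9887 against 1792 untreated regions, 5.52 times as many, and 87.6% of them were gained. On the other autosomes the ratio ran from 1.23 on chromosome 21 to 4.56 on chromosome 13, with a median of 2.08. Without chromosome 1 the gained share was 63.2%, with 15245 against 7695 regions or 1.98 cisplatin regions per untreated one.

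The remaining autosomes fell between 1.71 and 12.9 gained regions per Mb. Chromosomes 16 (1026 gained of 1511 cisplatin regions) and 21 (583 of 1109) were the densest with 12.9 gained per Mb each, followed by chromosome 15 (843 of 1210) with 10.2 and chromosome 9 (843 of 1352) with 6.84. The lowest density was that of chromosome 12, with 224 gained of 360 regions and 1.71 per Mb, and chromosome 3 had 353 of 564 and 1.81. Chromosome 21, the one with most untreated regions per Mb (19.9), had the lowest gained share, 52.6%. Chromosomes 13 and 14, with 48 and 96 untreated regions (0.499 and 1.09 per Mb), had gained shares of 84.5% and 81.0%, the highest after chromosome 1. The next sparsest, chromosomes 5, 12 and 18 with 1.13, 1.15 and 1.16 untreated regions per Mb, had shares of 71.1%, 62.2% and 67.3%. A sparse untreated list thus did not always come with a high gained share.

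The order of the chromosomes changed with the missing untreated numbers counted. The ratio of cisplatin regions to untreated numbers was then 2.03 on chromosome 1 and 1.05 to 1.48 on the other autosomes, and chromosome 13 came down from 4.56 to 1.23. At the untreated calling level it was 0.885 on chromosome 1, and it exceeded 1 on 5 of the 22 autosomes: chromosome 22 at 1.19, 20 at 1.13, 16 at 1.04, 7 at 1.03 and 9 at 1.02. The lowest were chromosome 13 at 0.556 and chromosome 14 at 0.599.

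**Figure D2:**
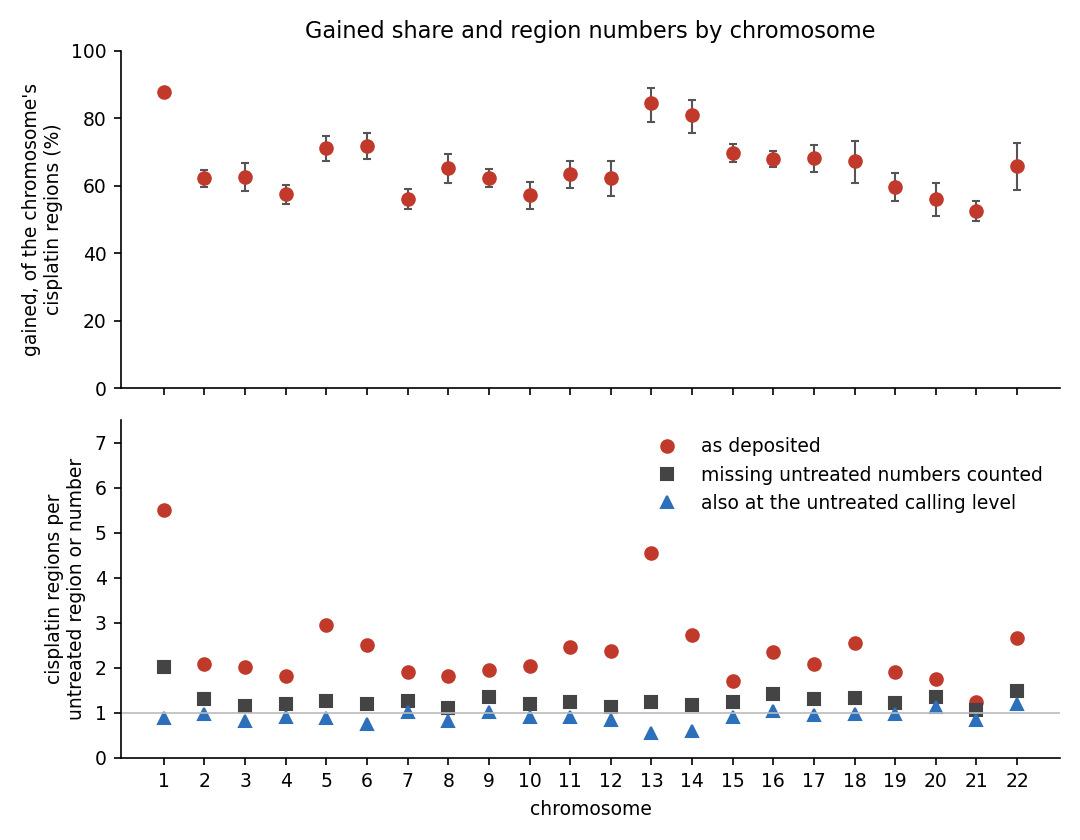
Upper panel: gained share of each autosome's cisplatin regions (percent; bars are exact 95% binomial intervals, counting error only). Lower panel: cisplatin regions per untreated region as deposited, per untreated peak number with missing numbers counted, and the latter at the untreated calling level; chromosome 1 moves from 5.52 over 2.03 to 0.885.

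Along chromosome 1 the arms differed. Windows of 1 Mb on the long arm from 5 Mb past the gap to the tip of the arm held a mean of 71.0 gained regions (102 windows, quartiles 38 to 95.8, highest 198). The highest count was shared by 148 to 149 Mb, with 150 untreated regions, and 195 to 196 Mb, with 1. The 115 windows of the short arm outside 5 Mb of the gap and the first Mb held a mean of 2.90, a median of 1 and a highest of 96. In stretches of 20 Mb measured from the gap, the long arm had 107.6 gained regions per window at 40 to 60 Mb and 49.9 and 49.8 in the next pair of stretches, against 22, 14 and 86 untreated regions in all. Missing untreated numbers, spread evenly between their retained neighbours, came to 38.1 per window at 40 to 60 Mb and to 18 and 18.9 in the next ones. Gained regions and missing numbers were both dense on the long arm, at 71.0 and 25.2 per window, and sparse on the short arm, at 2.90 and 1.39.

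**Figure D3:**
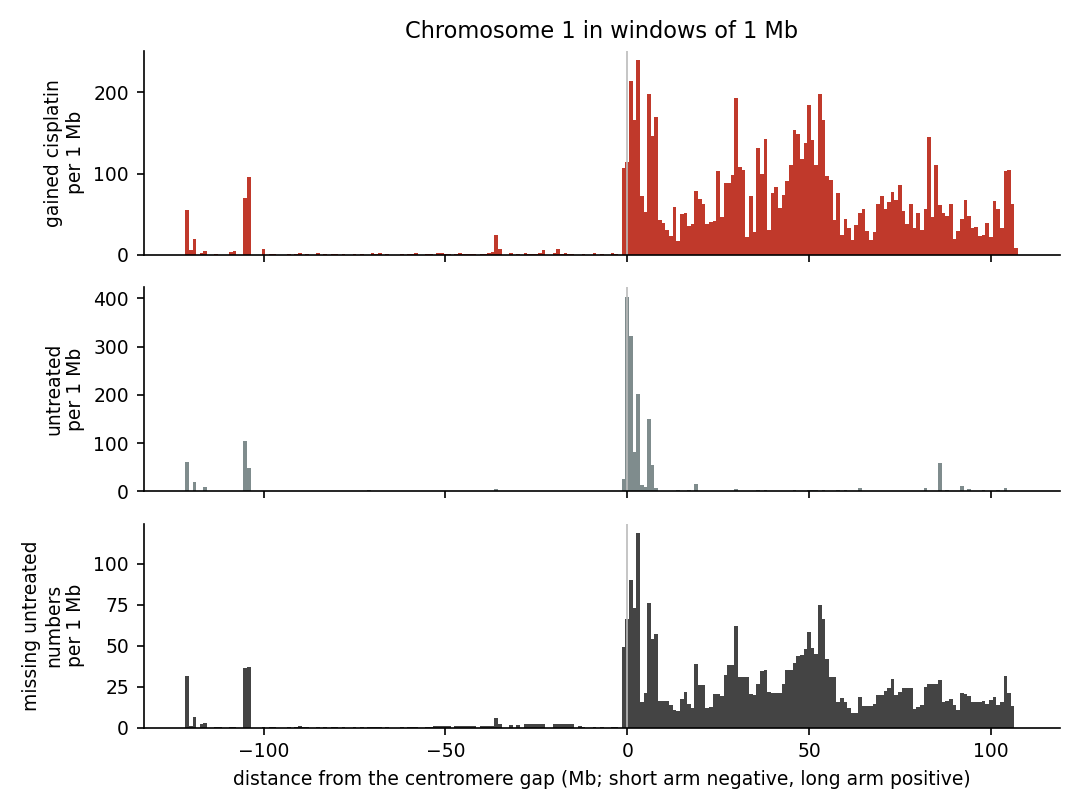
Chromosome 1 in windows of 1 Mb, by distance from the centromere gap (x axis, Mb), with gained cisplatin regions, deposited untreated regions and missing untreated numbers per window (y axes differ between panels). Gained regions and missing numbers are both dense along the long arm, where few untreated regions were retained; missing numbers are spread evenly between retained neighbours, so their fine shape is limited by the spacing of those.

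Cisplatin regions occupied about 3 times as many windows as untreated ones. Of 2746 windows of 1 Mb with assembled sequence, 1655 held a cisplatin and 535 an untreated region, and 1074 held neither. In 1137 windows a cisplatin region stood without any untreated one, and these held 4996 regions, 27.3% of all gained regions. Most were thinly filled: 642 held 1 region and 99 held 5 or more. Of the 1137 windows 106 lay on chromosome 1, with 2928 of the regions. Only 27 were out of reach of a missing number placed between retained untreated neighbours. A missing number can have many windows in its reach. The 27 are therefore not the windows left new if each number is taken as 1 region. Some of these 27 lay outside the outermost untreated regions of their chromosome, where the 81 numbers missing between chromosomes were not placed. The converse, a window with an untreated but no cisplatin region, occurred 17 times, each with 1 region.

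The windows with most cisplatin regions and no untreated one were all on the long arm of chromosome 1. They lay at 225 to 226 Mb (145 regions), 190 to 191 Mb (118), 187 to 188 Mb (111), 227 to 228 Mb (110) and 174 to 175 Mb (104). The median pileup of the gained regions was 17 in each, 3 reads above the lowest pileup of the list. The untreated neighbours that flanked these windows had between 87 and 120 numbers missing between them.

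The windows with most gained regions were other ones, and untreated cells had many regions there. The window at 32 to 33 Mb on chromosome 16 held 321 gained beside 137 kept cisplatin regions and 193 untreated regions. It was followed by 22 to 23 Mb on chromosome 15 (277 gained, 132 kept, 296 untreated), 33 to 34 Mb on chromosome 16 (255, 167 and 224), 190 to 191 Mb on chromosome 4 (246, 193 and 243) and 145 to 146 Mb on chromosome 1 (239, 137 and 201). Between 102 and 125 untreated numbers were missing inside each of these windows. The median pileup of the gained regions there was 20 to 20.5, higher than in the windows without untreated regions.

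The windows were also grouped by their untreated count, which is the denominator of the ratios that follow, so that the choice of groups alone raises the ratio at low counts; missing numbers are not counted here. With the dense part of the long arm of chromosome 1 (more than 5 Mb from its gap) left out, the 340 windows with 1 to 4 untreated regions held 3.29 cisplatin regions per untreated region. The ratio was 3.00 in 61 windows with 5 to 19, 1.82 in 54 windows with 20 to 99 and 1.38 in 26 windows with 100 or more. In 32 windows the cisplatin list held fewer regions than the untreated list. The widest such gaps were at 11 to 12 Mb on chromosome 21 (96 cisplatin, 164 untreated), 86 to 87 Mb on chromosome 8 (88 and 147) and 142 to 143 Mb on chromosome 1 (374 and 403). Only 3, 1 and 4 untreated regions were absent there, and the remaining ones shared 69, 63 and 260 kept cisplatin regions, so the lower count was not one of lost places.

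**Figure D4:**
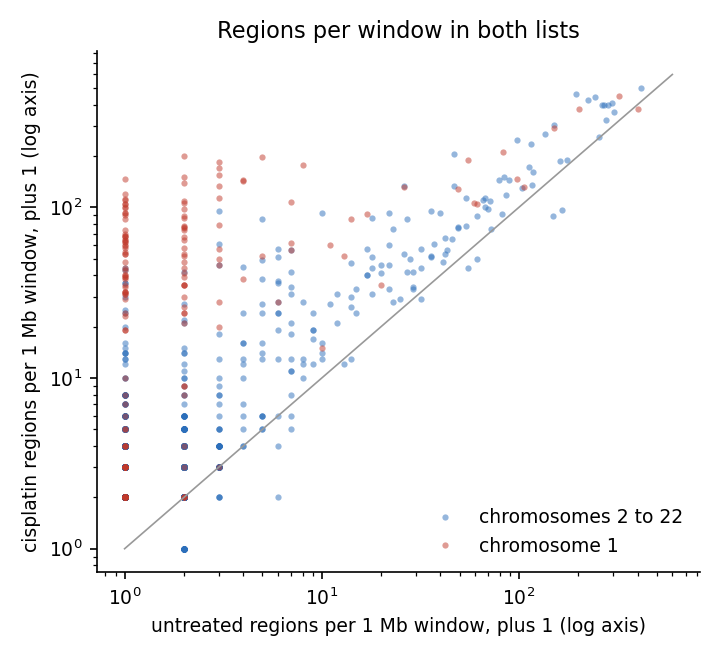
Each point is a window of 1 Mb with a region in either list, by its untreated (x axis) and cisplatin (y axis) region count, both plus 1 on log axes; the line marks equal counts. Chromosome 1 (red) has windows with over 100 cisplatin and no untreated region, and 32 windows of all lie below the line.

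Gained regions lay in clusters. A gained region had another one within 10 kb in 80.6% of cases (95% interval 80.1 to 81.2%), at a median distance of 1.41 kb, and kept regions had a kept neighbour within 10 kb in 92.2%. Joined at gaps of up to 10 kb, the gained regions formed 5581 chains, of which 3542 were single regions and 757 held 5 or more regions, with 62.2% of all gained regions. The clustering differed by place. Near centromere gaps 93.7% had a neighbour within 10 kb (median distance 0.643 kb), on the rest of the long arm of chromosome 1 84.0% (2.35 kb), and elsewhere, away from chromosome ends, 54.3% (4.95 kb, upper quartile 267 kb).

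The largest chain of gained regions was on the long arm of chromosome 16, far from the centromere. It ran from 70881385 to 71201930 (hg19), 24.5 Mb from the gap, with 247 gained regions of median pileup 19 among 38 kept cisplatin and 53 untreated regions. The next was at 32335564 to 32616357 on the short arm of the same chromosome, 2.72 Mb from the gap, with 203 gained, 55 kept and 72 untreated regions. On chromosome 4 a chain near the long-arm tip, from 190471295 to 190684401, held 179 gained, 55 kept and 85 untreated regions. The other two were on chromosome 1 from 145177053 to 145382113 (149 gained, 71 kept, 94 untreated) and on chromosome 15 from 22355606 to 22596123 (144, 87 and 176). In all of these chains the strongest gained region had a pileup of 30 to 33.

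Distance to the nearest untreated region separated the long arm of chromosome 1 from the other places. Over all gained regions the median distance was 50.6 kb, with 19.5% within 1 kb and 39.0% within 10 kb. Outside the rest of the long arm of chromosome 1 it was 4.02 kb, with 30.5% within 1 kb and 59.1% within 10 kb. On that arm it was 303 kb, with 8.01% within 10 kb. There were 2802 gained regions more than 1 Mb from any deposited untreated region, 993 of them on that arm.

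The strongest gained regions lay close beside untreated ones. By -log10 q the first was at 38035045 to 38035178 on chromosome 12, next to the centromere gap, with a pileup of 52 and a fold of 9.17, at 0.255 kb from an untreated region. The second, at 75864466 to 75864603 on chromosome 3, had a pileup of 49 and lay 0.433 kb from one. The third was at 32138204 to 32138774 on chromosome 16 with a pileup of 48 and a distance of 0.355 kb, and no untreated number was missing between its neighbours. The last pair, at 190202677 to 190202835 and 190860148 to 190860292 near the end of chromosome 4, had pileups of 47 and lay 1.49 and 0.373 kb from untreated regions. By comparison, 27 kept regions were tied at the highest -log10 q of 236.5, and the 5 widest of these, on chromosomes 2, 10 and 16 beside the gaps, had pileups of 201 or 202.

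Gained regions both far from untreated ones and with no missing untreated number placed around them were few. There were 223 of them more than 10 kb from an untreated region, a set drawn up after the values were seen. The strongest was at 61283558 to 61283664 on chromosome 7, just beyond the centromere gap, with a pileup of 34 and 39.6 kb from an untreated region. Next came 180905083 to 180905217 near the long-arm tip of chromosome 5 (pileup 32, 201 kb), 2551203 to 2551314 on the short arm of chromosome 4 (31, 205 kb), 51238896 to 51239018 at the end of chromosome 22 (30, 156 kb) and 249236392 to 249236658 at the end of chromosome 1 (29, 613 kb). In 3 of the 5 a chromosome end was less than 1 Mb away. Numbers missing between chromosomes were not placed, so regions beyond the outermost untreated region of a chromosome enter this set by construction. No pattern by location can be read from it.

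Absent untreated regions lay mostly close to a cisplatin region. Their median distance to a cisplatin region was 0.215 kb, and 282 of the 377 (74.8%) lay within 1 kb of one. Signs of cutting were seen in 260 of them (69.0%), against 37.8% of the whole untreated list, and since narrow pieces count as such a sign and overlap less often, the part of the cutting in their absence was not tested. This left 95 regions, 1.00% of the list, more than 1 kb from any cisplatin region, 30 of them without a sign of cutting. The absent share was 15.5% on the rest of the long arm of chromosome 1, 5.82% at chromosome ends, 5.72% elsewhere and 2.79% near the gaps. By chromosome it was highest on chromosome 6 (20 of 221, 9.05%) and chromosome 14 (6 of 96, 6.25%), and lowest on chromosome 3 (2 of 278, 0.719%).

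The strongest absent region stood alone. At 85280154 to 85280264 on chromosome 6 it had a pileup of 33 and a fold of 10.2 in untreated cells and lay 997 kb from the nearest cisplatin region. The second, at position 68454487 on chromosome 9, was a piece of a single base, 0.024 kb from a cisplatin region. The third, at 174541747 to 174541849 on chromosome 5 (pileup 30), lay 0.218 kb from one, while those at 140398342 to 140398457 on chromosome 9 (26) and 71145144 to 71145243 on chromosome 7 (25) lay 148 and 465 kb away. The windows with most absent regions were 57 to 58 Mb on chromosome 6 (13 of 150 untreated regions), 20 to 21 Mb on chromosome 15 (12 of 283), 32 to 33 Mb on chromosome 16 (12 of 193), 190 to 191 Mb on chromosome 4 (11 of 243) and 9 to 10 Mb on chromosome 21 (11 of 417). Cisplatin regions numbered 304, 395, 458, 439 and 496 in these windows.

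To compare the lists without their difference in length, the 9487 cisplatin regions with the highest -log10 p were set against the 9487 untreated regions. The lowest pileup taken was 22, or 4.61 times background, and 295 of the 1152 regions tied there entered, the wider ones first. Of these top regions 3331 (35.1%) were gained, and 1043 untreated regions (11%) had no overlap with them. Chromosome 1 then held 1785 top cisplatin and 1792 untreated regions, and the rest of its long arm 469 and 387. Against the deposited untreated list, the excess of chromosome 1 was thus carried by its weaker cisplatin regions. The untreated list is not itself a top list: it was taken whole, down to a pileup of 9. On the rest of the long arm of chromosome 1 it lacked 2558 numbers against 362 retained. Under the same overlap rule, gained top regions were narrower than kept ones, 163 against 384.5 bp, and 75.2% had another within 10 kb.

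At equal numbers, 14 autosomes held more top cisplatin than untreated regions and 8 held fewer. The ratio was highest on chromosomes 18 (119 against 87, 1.37), 12 (205 and 151, 1.36) and 11 (312 and 235, 1.33). It was lowest on chromosomes 21 (643 and 900, 0.714) and 15 (528 and 704, 0.75). By window, cisplatin exceeded untreated regions most at 57 to 58 Mb on chromosome 7 (162 against 114), 38 to 39 Mb on chromosome 12 (116 and 88) and 15 to 16 Mb on chromosome 18 (63 and 39), all beside centromere gaps. It fell short most at 22 to 23 Mb on chromosome 15 (190 against 296), 9 to 10 Mb on chromosome 21 (326 and 417) and, with equal shortfalls, 142 to 143 Mb on chromosome 1 (313 and 403) and 11 to 12 Mb on chromosome 21 (74 and 164). Untreated counts in these windows include pieces of cut regions. New windows, with a top cisplatin and no untreated region, numbered 287, and 41 windows showed the reverse.

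Shorter equal lists were compared in the same way, and the gained share was lower the shorter they were, while the absent share followed no order. Among the top 500 of each list 108 cisplatin regions (21.6%) and 42 untreated regions (8.40%) had no partner in the other top 500, and none was without a partner in the whole other list. Among the top 1000 the shares were 26% and 12.2%, again with no region lacking a partner in the whole other list. Among the top 2000 the shares were 27.6% and 11.2%, with 7 cisplatin and 3 untreated regions lacking a partner in the whole other list, and among the top 5000 they were 31.1% and 9.58%, with 510 and 49. Places less than 5 Mb from such gaps were 80.8% of the top 500 in both lists and 74.5% of cisplatin against 76.1% of untreated regions among the top 5000. Each of the 500 strongest deposited regions of either list thus overlapped a region called in the other condition. Regions without a partner appeared further down. Untreated pieces that share a number carry the same p-value and can enter a top list together, so untreated entries are not all separate places.

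**Figure D5:**
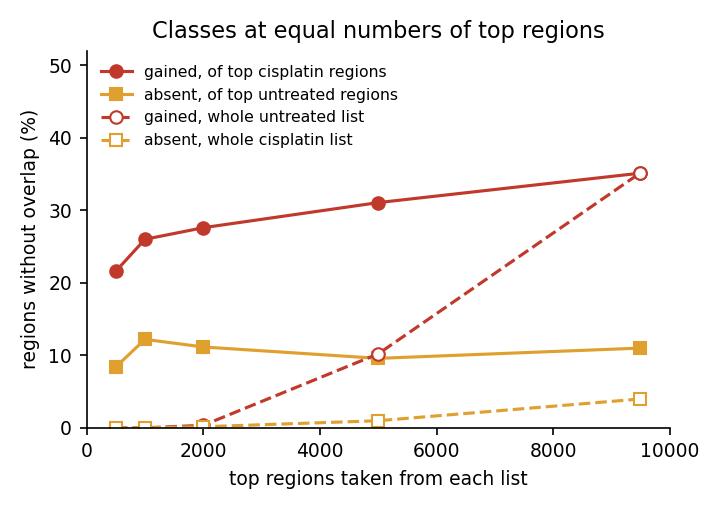
Share of regions without overlap (y axis, percent) by the number of top regions taken from each list (x axis), with the other list cut to the same number (solid) or taken whole (dashed). Among the top 500 the gained share is 21.6% against equal numbers and 0 against the whole untreated list; at 9487 it is 35.1%.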

How the data were processed

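γH2AX ChIP-seq of A2780 cells was deposited as 1 peak list per group. BWA 0.7.5, MACS2 2.1.0 and hg19 are named in the submitters' processing notes. How peaks were called, against which control, and whether replicates were pooled: not given in the sources used here. In the names of the treated lists a tag stands for untreated cells. The authors deposited for each peak a fold ratio over background, a -log10 p-value, a -log10 q-value, a whole-number score (10 times the -log10 q, rounded down) and the summit offset. These are the authors' values, used only to describe and rank peaks within a list. Read totals, and so depth, are unknown beyond the background pileup.

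Classes, distances, chains and windows (by region midpoint) were computed with pandas 2.3.3 and numpy 2.4.6 under Python 3.11.15, intervals with scipy 1.17.1 and plots with matplotlib 3.10.9, and the code was tested on simulated data. Chromosome lengths and centromere gaps of hg19 were entered from general knowledge; 0 regions lay beyond an end or inside a gap. Intervals on shares are exact binomial (Clopper-Pearson, 95%) and treat clustered regions as independent, so they are too narrow. Named regions are the 5 of each class with the highest -log10 q, and named windows and chains the 5 with most regions of their kind; the members and lists were chosen with earlier results of these data known. Windows at equal numbers and gained regions without missing numbers were added after seeing the data. Alternatives were a stricter q, equal numbers, other overlap rules, joining, a common lowest fold, missing numbers and leaving out chromosome 1. Genes and sequences were not analysed here, because no annotation or genome of hg19 was used.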

Additional observations from a re-analysis of the deposited data

Results flagged for a closer look

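Regions outside the autosomes entered no comparison. On chromosome X there were 539 cisplatin regions against 222 untreated ones, and 357 of the 539 overlapped no untreated region. On chromosome Y there were 449 against 380, with 137 gained. Both cisplatin counts stood above the untreated ones, in lists of different calling level and with 245 and 71 untreated numbers missing on these chromosomes. The line is of ovarian origin, and whether the reads counted on chromosome Y came from that chromosome was not tested.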

How the results depend on the processing

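No paired analysis was possible because both replicates of a group are tied to 1 list. Of 71 values under alternatives, 15 stayed inside the 95% interval of the reported share, ratio or median or, for newly occupied windows, within 1.5 times the reported count, and the cause of each shift was not tested unless the alternative itself is a shorter list. The gained share (72.8%) was 55.9% at a -log10 q of at least 5, 35.1% at equal numbers, 58.6% with a distance of 1 kb as overlap, 84.3% with overlap of 50% of the region, 83.9% with regions within 1 kb joined, 67.7% at the same lowest fold, 42.8% with missing numbers taken up and 63.2% without chromosome 1. In the same order of settings up to the lowest fold, the share of gained regions on chromosome 1 (47.3%) was 26.2%, 21.8%, 53.4%, 43.9%, 57.5% and 43.2%, and it was 51.5% with missing numbers. The absent share (3.97%) was 3.42%, 11%, 1.00%, 5.92% and 5.22% for the first 5, and 3.47% without chromosome 1. The ratio of list lengths (2.65) was 1.68 at the stricter q, 1 at equal numbers by construction, 3.99 joined, 2.22 at the same lowest fold, 1.47 with missing numbers and 1.98 without chromosome 1. The ratio of gained to kept width (0.411) was 0.461 at the stricter q, 0.547 within 1 kb, 0.663 with overlap of 50% and 0.109 joined. The share of gained regions within 10 kb of another (80.6%) was 75.2% at equal numbers, 75.7% within 1 kb, 83.3% with overlap of 50%, 65.2% joined, 79.4% at the same lowest fold and 76.7% without chromosome 1, with 43.0% for a distance of 1 kb and 91.2% for 100 kb. Newly occupied windows (1137) numbered 454 at the stricter q, 287 at equal numbers, 902 at the same lowest fold and 1031 without chromosome 1. In windows of 5 Mb there were 232. With missing numbers, 27 were out of reach of every placed number, which is not a count with each number taken as 1 region. The kept pileup ratio (0.836) was 0.811 at the stricter q, 0.859 at equal numbers, 0.779 within 1 kb and 0.817 with overlap of 50%, and so below 1 in each.

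Other alternatives were chosen after seeing the data. At the untreated calling level the gained share was 57.3%, the ratio of list lengths 1.65, the share on chromosome 1 35% and newly occupied windows 586. With missing numbers as well, the gained share was 21.4% and the ratio turned to 0.915. Among untreated regions without signs of cutting the absent share was 1.98% and the kept pileup ratio 0.846. With pieces joined by number the ratio of list lengths was 2.91. Depth is unknown and each condition has 1 list, so spread between replicates could not be given.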
